A study of Mus musculus with 11 samples.

Results

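The regulatory T cell genes described here are Foxp3, Ikzf2, Ikzf4, Tnfrsf18, Tnfrsf4, Lrrc32, Nrp1, Gpr83, Ebi3 and Capg. They were taken by name from a count table of 46078 genes, and all 10 were found and passed the filter on low counts that left 16365 genes. They were measured in T cells sorted from the kidneys of wild-type mice with experimental anti-myeloperoxidase glomerulonephritis, a model of ANCA-associated kidney disease. All mice were immunised with recombinant mouse MPO (myeloperoxidase) and received low-dose sheep anti-mouse basement membrane globulin as the trigger. Their kidneys were collected on day 21. The 4 sorted groups were CD4+CD127-PD-1+ (n = 2 libraries), CD4+CD127+PD-1- (n = 3), CD8+CD127-PD-1+ (n = 3) and CD8+CD127+PD-1- (n = 3). CD127 is the receptor chain for IL-7 and PD-1 is an inhibitory receptor of stimulated T cells. Each library came from cells pooled from 3 mice, so p values measure the spread between pools, and no group was sorted on FOXP3 or on CD25, the IL-2 receptor alpha chain.

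Regulatory T cells are CD4 T cells that restrain immune responses and depend on the transcription factor FOXP3. They are usually low for CD127 and carry high levels of the IL-2 receptor alpha chain, CTLA4 and several receptors of the tumour necrosis factor receptor family. Helios (Ikzf2) and Eos (Ikzf4) are Ikaros family zinc finger proteins that work with FOXP3. GARP (Lrrc32) presents latent TGF-beta on the cell surface, neuropilin-1 (Nrp1) binds semaphorins and VEGF, and EBI3 is a subunit of the cytokines IL-27 and IL-35.

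Library totals ran from 10572505 to 16057310 counts. Mitochondrially encoded genes held 30.0% to 44.8% of the counts, with the 3 highest shares, 38.5%, 43.5% and 44.8%, in the CD8+CD127-PD-1+ libraries. Levels are given in CPM (reads of a gene among 1000000 reads of the TMM-scaled library), and tests are edgeR quasi-likelihood tests across all tested genes with Benjamini-Hochberg adjustment and a threshold of 0.05. A gene past that threshold is called. In bulk libraries such as these, fewer cells of a type and less RNA per cell cannot be told apart.

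Foxp3 (ENSMUSG00000039521, chromosome X, 7573644 to 7595245, GRCm38), the lineage-defining factor, was abundant in both CD4 populations and low in both CD8 populations. Its level was 63.2 and 68.8 CPM for CD4+CD127-PD-1+ libraries, against 73.8, 51.2 and 96.2 CPM for CD4+CD127+PD-1- libraries. The libraries of these groups overlapped, with no call on the difference (log2 fold change -0.16, SE 0.29, edgeR adjusted p = 0.792). The CD8 libraries held 1.10, 0.896 and 0.893 CPM in the CD127-PD-1+ libraries (12 to 15 reads each) and 0.876, 2.35 and 2.43 CPM in the CD127+PD-1- libraries (13 to 35 reads each). The CD8 difference was not called either (log2 fold change -0.95, SE 0.40, adjusted p = 0.135). It was called with CD8+CD127+PD-1- replicate 1 left out (0.0255) and with no filter on low counts (0.0388). Exons of Foxp3 share sequence positions with exons of Ppp1r3f, Flicr, Ccdc22 and the predicted gene Gm36995. The strand setting of the counting is not known, so reads of Foxp3 and of these neighbours cannot be told apart there.

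The promoter-side sequence of Foxp3 is shown because Foxp3 is the gene against which the other genes are read here. RefSeq gives 2 windows for it, and the one at chrX:7579426-7579675 held no match to the motifs searched. The 250 bases of the other window (chrX:7580233-7580482, plus strand, GRCm38.p6) are given 5′ to 3′, with capitals marking motif matches.
Foxp3: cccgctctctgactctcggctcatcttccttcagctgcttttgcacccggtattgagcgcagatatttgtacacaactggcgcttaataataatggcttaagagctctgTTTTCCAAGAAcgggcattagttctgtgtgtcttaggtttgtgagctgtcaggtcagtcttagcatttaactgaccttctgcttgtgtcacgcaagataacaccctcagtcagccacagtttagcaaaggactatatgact
The motifs searched on both strands were TGTTTAC (forkhead), TTCNNNGAA (STAT), GGAAAA (NFAT), GAGGAA (PU.1) and an NF-kB motif. The capitals are a STAT match at positions -139 to -131 and an NFAT match on the opposite strand at -141 to -136, which overlap, counting -1 as the last base before that start. Among 32851 RefSeq windows of the same length, 7.02% held the STAT letters and 20.4% the NFAT letters. Both Foxp3 windows lie inside the gene span given above and overlap exons of Flicr, and the one not shown also overlaps an exon of Foxp3. Promoter sequences were found for 7 of the 10 genes. Beside Foxp3 and Ebi3, the Tnfrsf18 window held STAT, NFAT and PU.1 matches and the Nrp1 window a PU.1 match. The windows of Capg, Gpr83 and Tnfrsf4 held none.

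**Figure D1:**
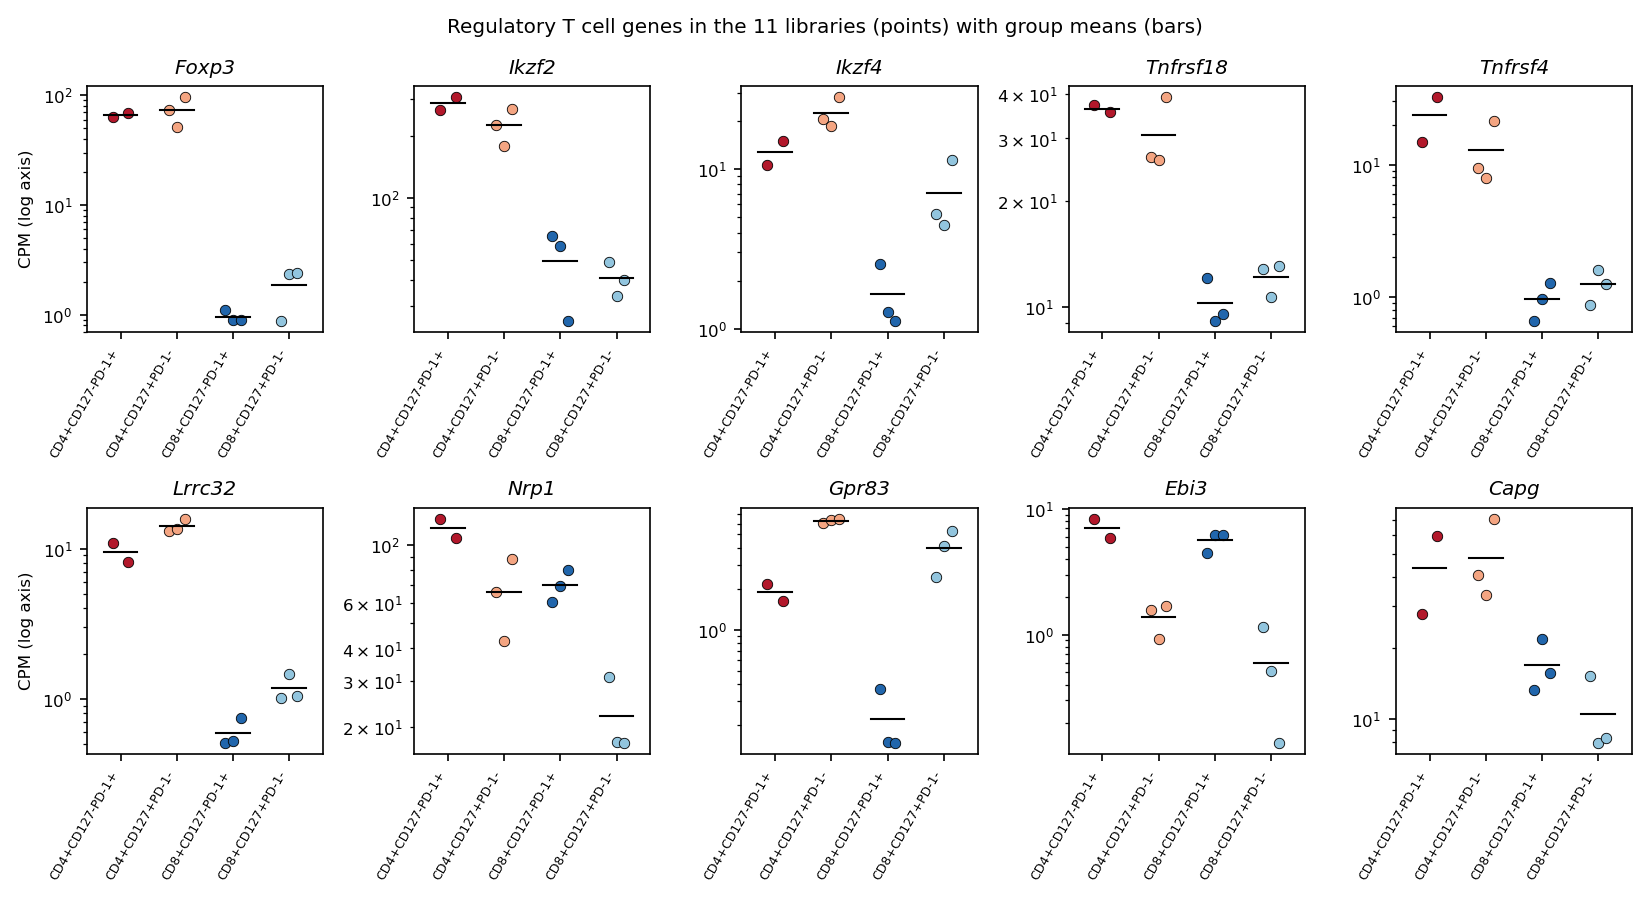
Level of each of the 10 genes in every library, in CPM on a log axis, with points for libraries and short lines for the mean of each sorted group. Foxp3, Lrrc32 and Tnfrsf4 sit far higher in both CD4 groups than in both CD8 groups. Ebi3, Gpr83, Nrp1, Ikzf4 and Lrrc32 separate by CD127 and PD-1 state in both lineages. Of all tested genes, 40.7% did so in CD4 and 34.4% in CD8 cells.

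Most of the 10 genes were higher in CD4 than in CD8 cells. Of the 10 genes, 7 were called higher in CD4+CD127-PD-1+ than in CD8+CD127-PD-1+ cells and 0 lower, where 1.6% of all tested genes were called higher, 0.843% lower and 2.44% in either direction. In CD127+PD-1- cells 8 of the 10 were called higher in CD4 than in CD8 cells and 0 lower, where 2.76% of all tested genes were called higher, 1.66% lower and 4.42% in either direction. The median log2 fold change of the 10 was 2.73 in the CD127-PD-1+ state, beside -0.02 over all tested genes, and 1.93 in the CD127+PD-1- state, beside -0.01.

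Foxp3 had the largest lineage difference of the 10 in both states. Its log2 fold change of CD4 over CD8 was 6.09 (SE 0.37, adjusted p = 1.12e-05) in CD127-PD-1+ cells and 5.29 (SE 0.33, adjusted p = 8.2e-06) in CD127+PD-1- cells. Lrrc32 (ENSMUSG00000090958, chromosome 7, 98489283 to 98502181), the GARP gene, differed by 3.98 (SE 0.28, adjusted p = 3.08e-05) in the first state and by 3.58 (SE 0.25, adjusted p = 1.87e-05). Tnfrsf4 (ENSMUSG00000029075, chromosome 4, 156013843 to 156016612), which encodes the costimulatory receptor OX40, differed by 4.60 (SE 0.50, adjusted p = 0.000617) in the first state and by 3.36 (SE 0.46, adjusted p = 0.00166). Ikzf2 (ENSMUSG00000025997, chromosome 1, 69531214 to 69687245) differed by 2.52 (SE 0.32, adjusted p = 0.00149) in the first state and by 2.45 (SE 0.30, adjusted p = 0.000785). Tnfrsf18 (ENSMUSG00000041954, chromosome 4, 156026164 to 156028895), which encodes the costimulatory receptor GITR, differed by 1.83 (adjusted p = 0.000734) and 1.33 (adjusted p = 0.00184). For all 5 of these genes every CD4 library was above every CD8 library of the same state, as was the case for 27.8% of all tested genes in either direction in the CD127-PD-1+ state and 22.8% in the CD127+PD-1- state.

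Of the other 5 genes, Ikzf4 was called between lineages in both states, Nrp1, Capg and Gpr83 in 1 state each and Ebi3 in neither. Ikzf4 (ENSMUSG00000002578, chromosome 10, 128630843 to 128645991) was called higher in CD4 cells in both states, by 2.95 in CD127-PD-1+ cells (SE 0.44, adjusted p = 0.00422) and by 1.67 in CD127+PD-1- cells (SE 0.37, adjusted p = 0.0238). The second of these calls was lost without CD4+CD127+PD-1- replicate 1 or 3 (0.0643 and 0.11) and without CD8+CD127+PD-1- replicate 1 or 2 (0.0925 and 0.079). Nrp1 and Capg were called in the CD127+PD-1- state, Nrp1 by 1.58 (SE 0.28, adjusted p = 0.00652) and Capg by 2.20 (SE 0.38, adjusted p = 0.00605). In the CD127-PD-1+ state Nrp1 stood at 0.73 (adjusted p = 0.294) and Capg at 1.37 (adjusted p = 0.117), and neither was called. Capg was called there by DESeq2 (adjusted p = 0.0211) and without the filter on low counts (0.00187). Gpr83 was called in the CD127-PD-1+ state, by 3.04 (SE 0.48, adjusted p = 0.00596), and not in the CD127+PD-1- state (0.67, SE 0.32, adjusted p = 0.301). That call rests on 9 reads over the 3 CD8+CD127-PD-1+ libraries and was absent with limma-voom (adjusted p = 0.0615) and in a model of the compared groups alone (0.0707). Ebi3 was called in neither state, with 0.34 (adjusted p = 0.838) and 1.19 (adjusted p = 0.271).

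The level left in CD8 cells differed widely among the 10 genes. The mean CPM of Foxp3 in CD8 cells was 1.46% of that in CD4 cells in the CD127-PD-1+ state and 2.55% in the CD127+PD-1- state. The sort marker Cd4 stood at 0.769% and 1.18% by the same measure. Lrrc32 stood at 6.24% and 8.32%, Tnfrsf4 at 4.08% and 9.68%, and Ikzf2 at 17.4% and 18.3%. Tnfrsf18 reached 28.1% and 39.6%, and Ikzf4 reached 12.9% and 31.4%. The order of Foxp3 over single CD8 libraries, from 12 to 35 reads each, did not follow that of Cd4. In the CD8+CD127+PD-1- libraries Cd4 measured 9.36, 6.23 and 4.02 CPM where Foxp3 measured 0.876, 2.35 and 2.43 CPM. In CD8+CD127-PD-1+ replicate 1 Cd4 reached 9.71 CPM, against 1.19 and 3.72 CPM in replicates 2 and 3, while Foxp3 was close to 1 CPM in all 3. In both CD8 groups replicate 1, highest for Cd4, also had the highest sum of 8 conventional dendritic cell genes. That sum was 474 CPM in CD8+CD127+PD-1- replicate 1 and 664 CPM in CD8+CD127-PD-1+ replicate 1. The same libraries were also highest for the sum of 6 kidney tubule genes (256 and 59.1 CPM). Macrophage and plasmacytoid dendritic cell sums were highest in replicate 1 of CD8+CD127+PD-1- cells (126 and 921 CPM), but not in that of CD8+CD127-PD-1+ cells. How much of the CD8 signal came from CD4 cells in the sort, or of Cd4 from dendritic or other cells, was not tested.

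**Figure D2:**
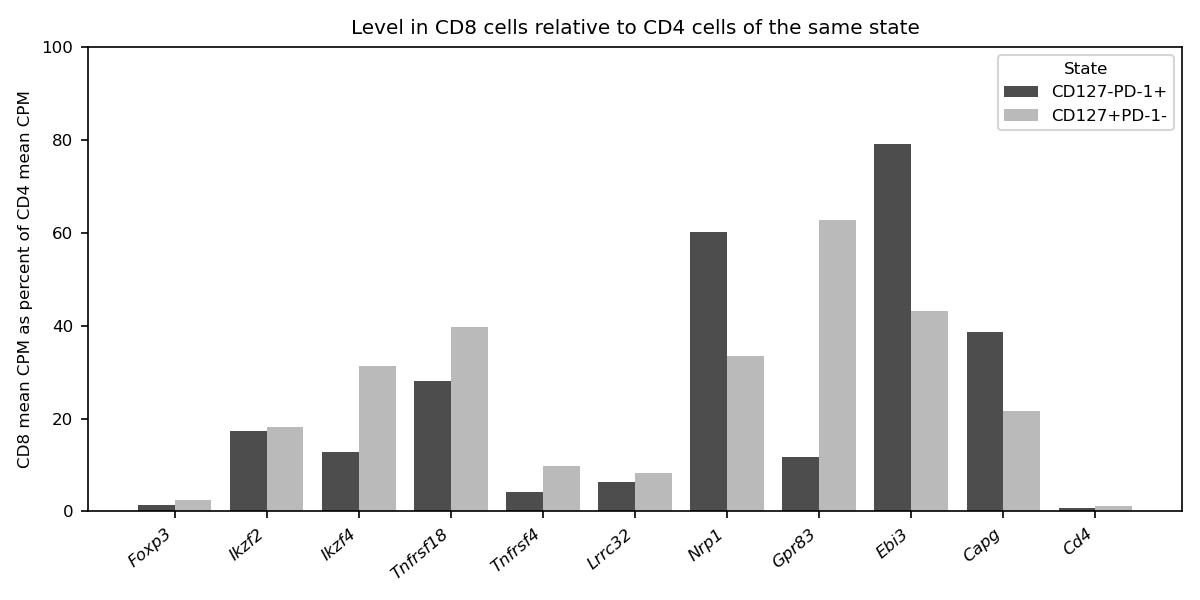
Mean CPM in CD8 cells as a percent of mean CPM in CD4 cells of the same state, for the 10 genes and the sort marker Cd4, with 1 bar for each CD127 and PD-1 state. Foxp3 is at 1.46% and 2.55% and Cd4 at 0.769% and 1.18%, while Ikzf2 is at 17.4% and 18.3% and Ebi3 at 79.1% and 43.1%.

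Between the CD127 and PD-1 states, 2 of the 10 genes were called in CD4 cells and 5 in CD8 cells, against 11.7% and 15.6% of all tested genes. In CD4 cells Ebi3 was called higher in CD127-PD-1+ cells (6.81% of all tested genes were called higher) and Gpr83 lower (4.87% were called lower). In CD8 cells Ebi3 and Nrp1 were called higher (9.05% of all tested genes were) and Gpr83, Ikzf4 and Lrrc32 lower (6.56% were). The median log2 fold change of the 10 was 0.06 in CD4 cells, beside 0.02 over all tested genes, and -0.31 in CD8 cells, beside 0.01. The CD8 libraries were free of overlap for 5 of the 10 genes and the CD4 libraries likewise for 5 of the 10, against 34.4% and 40.7% of all tested genes. With 2 against 3 CD4 libraries, the CD4 counts changed with single libraries. Without CD4+CD127-PD-1+ replicate 1 no gene of the 10 was called in either direction, without replicate 2 none was called lower, and without CD4+CD127+PD-1- replicate 3 there were 3 called higher.

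Ebi3 (ENSMUSG00000003206, chromosome 17, 55952640 to 55957022) had the largest increase of the 10 in both lineages. Its CD4 levels were 8.34 and 5.84 CPM for CD127-PD-1+ libraries, against 1.57, 0.922 and 1.67 CPM for CD127+PD-1- libraries. The libraries did not overlap (log2 fold change 2.35, SE 0.49, adjusted p = 0.0108). Leaving out CD4+CD127-PD-1+ replicate 1 moved that adjusted p to 0.0662. Its CD8 levels were 4.46, 6.20 and 6.18 CPM in CD127-PD-1+ libraries and 1.15, 0.513 and 0.139 CPM in CD127+PD-1- libraries (3.20, SE 0.50, adjusted p = 0.00145). Every CD127-PD-1+ library of either lineage was above every CD127+PD-1- library. The partner genes of Ebi3 were scarce. Il12a, the other subunit of IL-35, averaged 0.370 ± 0.523 CPM for CD4+CD127-PD-1+ libraries, 1 of them at 0, and 1.01 ± 0.103 CPM for CD4+CD127+PD-1- libraries, and was called in neither lineage. Il27, the p28 subunit of IL-27, had 11 reads over the CD4+CD127-PD-1+ libraries and 1 over the CD4+CD127+PD-1- libraries, and 27 and 2 over the CD8 groups of those states, and was too low to test. Exons of Ebi3 overlap those of the antisense gene Gm16712.

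Gpr83 (ENSMUSG00000031932, chromosome 9, 14860210 to 14870789), a G protein-coupled receptor carried by regulatory T cells, had the largest decrease of the 10 in both lineages. Its CD4 levels were 2.15 and 1.62 CPM for CD127-PD-1+ libraries, against 6.05, 6.37 and 6.51 CPM for CD127+PD-1- libraries (-1.74, SE 0.38, adjusted p = 0.0141). Leaving out either CD4+CD127-PD-1+ library ended the call (0.0518 without replicate 1, 0.0931 without replicate 2). The CD8 libraries held 0.365, 0.149 and 0.149 CPM in CD127-PD-1+ libraries, from 2 to 5 reads each, and 2.42, 4.11 and 5.34 CPM in CD127+PD-1- libraries (-4.10, SE 0.43, adjusted p = 0.00018). The groups did not overlap in either lineage. The CD8+CD127+PD-1- level exceeded that of the CD4+CD127-PD-1+ libraries, so Gpr83 did not follow Foxp3 across the 4 groups. The state change of Gpr83 in CD4 cells less that in CD8 cells was not called (2.36, SE 0.58, adjusted p = 0.545, unadjusted p = 0.00164).

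Because Ebi3 and Gpr83 differed in opposite directions in both lineages, the 250 bases before their RefSeq starts are shown, Ebi3 at chr17:55952373-55952622 and Gpr83 at chr9:14859960-14860209 (plus strand, GRCm38.p6, 5′ to 3′, capitals as above).
Ebi3: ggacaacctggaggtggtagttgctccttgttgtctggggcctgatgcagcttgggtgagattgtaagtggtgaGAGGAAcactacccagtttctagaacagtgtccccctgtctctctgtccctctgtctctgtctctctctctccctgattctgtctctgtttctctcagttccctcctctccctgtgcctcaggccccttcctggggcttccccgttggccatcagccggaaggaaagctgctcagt
Gpr83: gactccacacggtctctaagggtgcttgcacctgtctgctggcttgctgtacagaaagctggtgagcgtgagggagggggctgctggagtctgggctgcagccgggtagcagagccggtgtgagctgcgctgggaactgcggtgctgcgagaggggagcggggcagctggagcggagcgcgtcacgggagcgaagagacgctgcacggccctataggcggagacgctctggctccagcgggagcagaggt
The Ebi3 window held a PU.1 match at positions -176 to -171, letters found in 23.3% of all windows. The Gpr83 window held no match to the 5 motifs. Forkhead letters were found in neither window nor in those of Foxp3, against 3.17% of all windows.

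**Figure D3:**
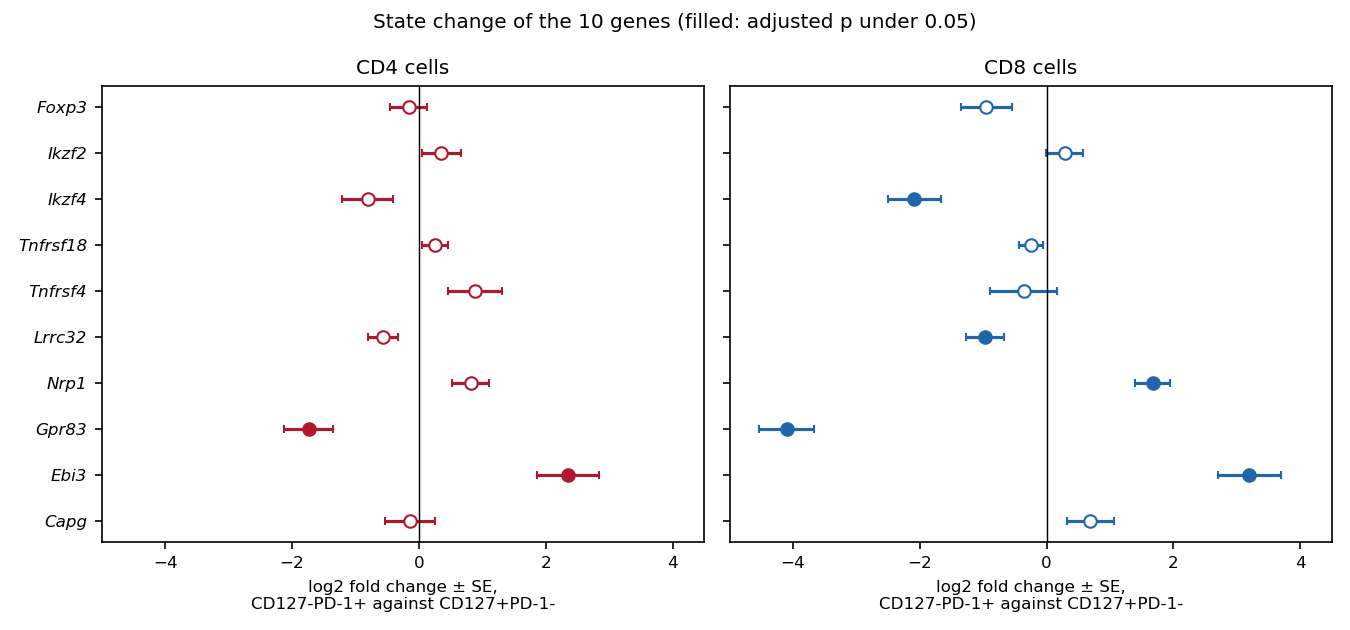
Log2 fold change ± SE of CD127-PD-1+ over CD127+PD-1- cells for the 10 genes in CD4 and CD8 cells, with filled points for adjusted p under 0.05. Ebi3 is to the right of 0 and Gpr83 to the left in both lineages, while Foxp3 and Ikzf2 are unfilled in both.

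Of the Ikaros family factors in the set, Ikzf4 was called lower in the CD127-PD-1+ state of CD8 cells, and Ikzf2 was called in neither lineage. Ikzf2, the Helios gene, stood at 266 and 307 CPM for CD4+CD127-PD-1+ and at 225, 179 and 268 CPM for CD4+CD127+PD-1- libraries, which overlapped, and was not called (0.35, SE 0.31, adjusted p = 0.526). In CD8 libraries Ikzf2 measured 65.4, 58.7 and 25.4 CPM in CD127-PD-1+ libraries and 49.0, 33.7 and 40.1 CPM in CD127+PD-1- libraries (0.28, SE 0.29, adjusted p = 0.563), again with overlap. CD8+CD127-PD-1+ replicate 3 was the lowest of the 6 CD8 libraries. Ikzf4, the Eos gene, stood at 10.6 and 15.0 CPM for CD4+CD127-PD-1+ and at 20.6, 18.5 and 28.1 CPM for CD4+CD127+PD-1- libraries, without overlap and without a call (-0.81, SE 0.40, adjusted p = 0.235). In CD8 cells Ikzf4 was called lower, with 2.56, 1.27 and 1.12 CPM in CD127-PD-1+ libraries and 5.25, 4.47 and 11.4 CPM in CD127+PD-1- libraries (-2.09, SE 0.41, adjusted p = 0.00582). Of the other family genes, Ikzf3 (Aiolos) was called higher in the CD127-PD-1+ state of CD4 cells, at 309 ± 21.4 CPM for CD4+CD127-PD-1+ libraries, against 159 ± 15.7 CPM for CD4+CD127+PD-1- libraries (0.96, SE 0.17, adjusted p = 0.00468). Ikzf1 (Ikaros) stood at -0.24 in CD4 and -0.27 in CD8 cells (adjusted p = 0.133 and 0.0527) and Ikzf5 at -0.13 and -0.21 (0.695 and 0.411), none of them called.

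Tnfrsf4 and Tnfrsf18 lie side by side on chromosome 4 in the same orientation, 9.55 kb apart with 2 predicted genes between them. Tnfrsf4 stood at 14.9 and 32.3 CPM for CD4+CD127-PD-1+ and at 9.37, 7.91 and 21.3 CPM for CD4+CD127+PD-1- libraries, which overlapped (0.88, SE 0.43, adjusted p = 0.22). Leaving out CD4+CD127+PD-1- replicate 3 brought a call (1.46, adjusted p = 0.0422). Its CD8 levels were between 0.657 and 1.61 CPM, from 0.657 to 1.26 in CD127-PD-1+ and from 0.876 to 1.61 in CD127+PD-1- cells. The CD8 difference was not called (-0.36, SE 0.53, adjusted p = 0.707). Tnfrsf18 stood at 37.3 and 35.6 CPM for CD4+CD127-PD-1+ and at 26.6, 26.1 and 39.3 CPM for CD4+CD127+PD-1- libraries (0.25, SE 0.20, adjusted p = 0.484). Its CD8 levels were 12.1, 9.11 and 9.52 CPM in CD127-PD-1+ and 12.8, 10.6 and 13.0 CPM in CD127+PD-1- libraries (-0.25, SE 0.19, adjusted p = 0.426). The ligand genes Tnfsf4 (12 to 48 reads a group) and Tnfsf18 (9 to 32 reads a group) were called in neither state comparison. Among 6 further receptors of this family, Tnfrsf1b, the second TNF receptor, was called higher in CD127-PD-1+ cells of both lineages (0.73, adjusted p = 0.0324 in CD4, and 1.03, adjusted p = 0.00287 in CD8). The CD4 call of Tnfrsf1b was lost without either CD4+CD127-PD-1+ library (0.0639 and 0.179) and without CD4+CD127+PD-1- replicate 1 or 2 (0.0872 and 0.0959). Tnfrsf25 (DR3) was called higher in CD4 than in CD8 cells in both states, by 4.45 (SE 0.53, adjusted p = 0.00114) in CD127-PD-1+ cells and by 2.61 (SE 0.43, adjusted p = 0.00436) in CD127+PD-1- cells. Between states it was called lower in CD127-PD-1+ CD8 cells. That fold change ran from -3.08 to -1.79 over 20 alternative fits, 5 of which lost the call.

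Lrrc32 stood at 10.9 and 8.11 CPM for CD4+CD127-PD-1+ and at 13.0, 13.4 and 15.8 CPM for CD4+CD127+PD-1- libraries, without overlap and without a call (-0.57, SE 0.24, adjusted p = 0.159). In CD8 libraries Lrrc32 measured 0.511, 0.523 and 0.744 CPM in CD127-PD-1+ and 1.01, 1.47 and 1.04 CPM in CD127+PD-1- libraries, from 7 to 20 reads each. That difference was just past the threshold (-0.97, SE 0.30, adjusted p = 0.047) and missed it in 16 of 20 alternative fits. These include all 9 fits without 1 library other than the CD4+CD127-PD-1+ ones, with adjusted p from 0.0592 to 0.197. GARP binds the latent product of Tgfb1, which integrins with the Itgav and Itgb8 chains activate. In CD4 cells Tgfb1 (0.70, adjusted p = 0.0305) and Itgav (0.70, adjusted p = 0.0315) were called higher in the CD127-PD-1+ state. Without CD4+CD127-PD-1+ replicate 1 the adjusted p was 0.134 for Tgfb1 and 0.135 for Itgav, and without replicate 2 at 0.0841 and 0.0868. Tgfb1 also lost its call without CD4+CD127+PD-1- replicate 1 (0.0747) or 2 (0.0772). In CD8 cells Itgav was called higher at 154 ± 15.2 CPM in CD127-PD-1+ and 65.4 ± 2.15 CPM in CD127+PD-1- libraries (1.24, SE 0.17, adjusted p = 0.000744). Itgb8 was called in neither state comparison. The part of macrophage RNA, described below, in the levels of Tgfb1, Itgav and Tnfrsf1b was not tested.

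Nrp1 (ENSMUSG00000025810, chromosome 8, 128358604 to 128503363) had its libraries apart in both lineages, and was called between states in CD8 cells and not in CD4 cells. It measured 60.3, 69.6 and 80.1 CPM in CD8+CD127-PD-1+ and 31.0, 17.5 and 17.4 CPM in CD8+CD127+PD-1- libraries (1.67, SE 0.28, adjusted p = 0.00203). Its CD4 libraries held 126 and 106 CPM in CD127-PD-1+ and 65.9, 42.9 and 88.6 CPM in CD127+PD-1- libraries (0.82, SE 0.29, adjusted p = 0.0968), without overlap. The CD4 difference was called with CD4+CD127+PD-1- replicate 3 left out (1.11 at 0.045) and with no filter on low counts (0.80 at 0.0133). Capg (ENSMUSG00000056737, chromosome 6, 72544391 to 72562983), an actin filament capping protein of regulatory T cells and macrophages, was called in neither lineage. Its CD4 levels were 27.8 and 59.8 CPM for CD4+CD127-PD-1+ libraries, against 40.8, 33.4 and 70.6 CPM in CD4+CD127+PD-1- libraries (-0.14, SE 0.40, adjusted p = 0.876). The CD8 libraries held 13.2, 21.8 and 15.6 CPM in CD127-PD-1+ and 15.2, 7.92 and 8.32 CPM in CD127+PD-1- libraries (0.69, SE 0.37, adjusted p = 0.246). The groups overlapped in both lineages.

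Macrophage genes rose in both lineages, where Ebi3 was called higher too, while Nrp1 was called higher in CD8 cells alone. A list of 12 macrophage genes summed to 2706 and 1268 CPM for CD4+CD127-PD-1+ libraries, against 53.8 to 118 CPM in CD4+CD127+PD-1- libraries. The CD8 sums were between 1251 and 2422 CPM in CD127-PD-1+ and between 63.0 and 126 CPM in CD127+PD-1- libraries. All 12 genes were called higher in both lineages, and none was at 0 reads in any library. Csf1r, the macrophage growth factor receptor, averaged 222 ± 113 CPM for CD4+CD127-PD-1+ libraries, against 5.53 ± 2.86 CPM for CD4+CD127+PD-1- libraries. C1qa, a complement gene, averaged 72.3 ± 31.0 CPM in the first group and 0.714 ± 0.353 CPM in the second. Ebi3, Nrp1 and Capg are also expressed by macrophages or dendritic cells, and the part of this RNA in their levels was not tested. Within the CD127-PD-1+ libraries the lowest macrophage sum in CD8 cells, 1251 CPM in replicate 1, coincided with the lowest Ebi3 and Nrp1 levels of that group, and in CD4 cells the lower sum in replicate 2 coincided with the lower Ebi3 and Nrp1. Capg was likewise lowest in that CD8 library, at 13.2 CPM, but ran the other way in CD4 cells, with 27.8 CPM in replicate 1 and 59.8 CPM in replicate 2. In the CD4+CD127+PD-1- group the lowest macrophage sum, 53.8 CPM in replicate 3, came with the highest Nrp1 (88.6 CPM) and Ebi3 (1.67 CPM). In the CD8+CD127+PD-1- group the lowest sum, 63.0 CPM in replicate 3, came with the lowest Nrp1 (17.4 CPM) and Ebi3 (0.139 CPM). These orders over single libraries were not tested.

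Some neutrophil and B cell genes were also called between states. All 5 tested neutrophil genes of a list of 6 were called higher in CD127-PD-1+ CD8 cells, and 1 of the 5 in CD4 cells. Their sums were 36.7 to 240 CPM in CD8+CD127-PD-1+ and 2.43 to 15.0 CPM in CD8+CD127+PD-1- libraries, and 23.2 to 32.4 CPM in CD127-PD-1+ and 2.76 to 4.75 CPM in CD127+PD-1- libraries of CD4 cells. The lowest of the CD8+CD127-PD-1+ neutrophil sums was again that of replicate 1. Up to 2 of the 6 neutrophil genes were at 0 in single libraries. Of 6 B cell genes, 3 were called higher in CD127-PD-1+ CD8 cells and 0 in CD4 cells, with overlapping sums of 349 to 586 CPM in CD8+CD127-PD-1+ and 237 to 379 CPM in CD8+CD127+PD-1- libraries. NK cell genes had 1 of 5 called higher in CD8 cells and 0 in CD4 cells, and of the 8 conventional dendritic cell genes 0 were called between states. The part of these cells in the levels of the 10 genes was not tested.

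Genes of plasmacytoid dendritic cells (5 of 8 called lower in CD4 cells, 4 of 8 in CD8 cells) and endothelium (2 of 3 tested called lower in each) were lower in the CD127-PD-1+ state. Among the 10 genes, Gpr83 was called lower in both lineages, and Ikzf4 and Lrrc32 in CD8 cells alone. The 8 plasmacytoid dendritic cell genes summed to 404 and 104 CPM in CD4+CD127-PD-1+ libraries and to 612 to 1258 CPM in CD4+CD127+PD-1- libraries. In CD8 cells they summed to 144 to 177 CPM in CD127-PD-1+ and 467 to 921 CPM in CD127+PD-1- libraries. Their first markers Siglech and Bst2 were above 0 in every library, with Siglech at 19.0 ± 19.2 CPM for CD4+CD127-PD-1+ libraries, against 274 ± 120 CPM for CD4+CD127+PD-1- libraries. The 7 endothelial genes summed to 62.5 and 64.1 CPM for CD4+CD127-PD-1+ libraries, against 121 to 155 CPM in CD4+CD127+PD-1- libraries, and to 27.4 to 46.5 CPM in CD8+CD127-PD-1+ and 65.6 to 97.6 CPM in CD8+CD127+PD-1- libraries. Up to 3 of these 7 genes were at 0 in single libraries. In both CD127+PD-1- groups the highest plasmacytoid dendritic cell sum, in replicate 1, came with the lowest Gpr83. These Gpr83 levels were 6.05 CPM in CD4 and 2.42 CPM in CD8 cells. In CD4+CD127-PD-1+ libraries the lower sum, in replicate 2, came with the lower Gpr83 (1.62 CPM). The CD8+CD127-PD-1+ libraries held 2 to 5 Gpr83 reads each. The part of these cells in the lower genes was not tested. The 10 T cell genes summed to 1532 to 2384 CPM over all libraries and none of them was called in either state comparison.

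**Figure D4:**
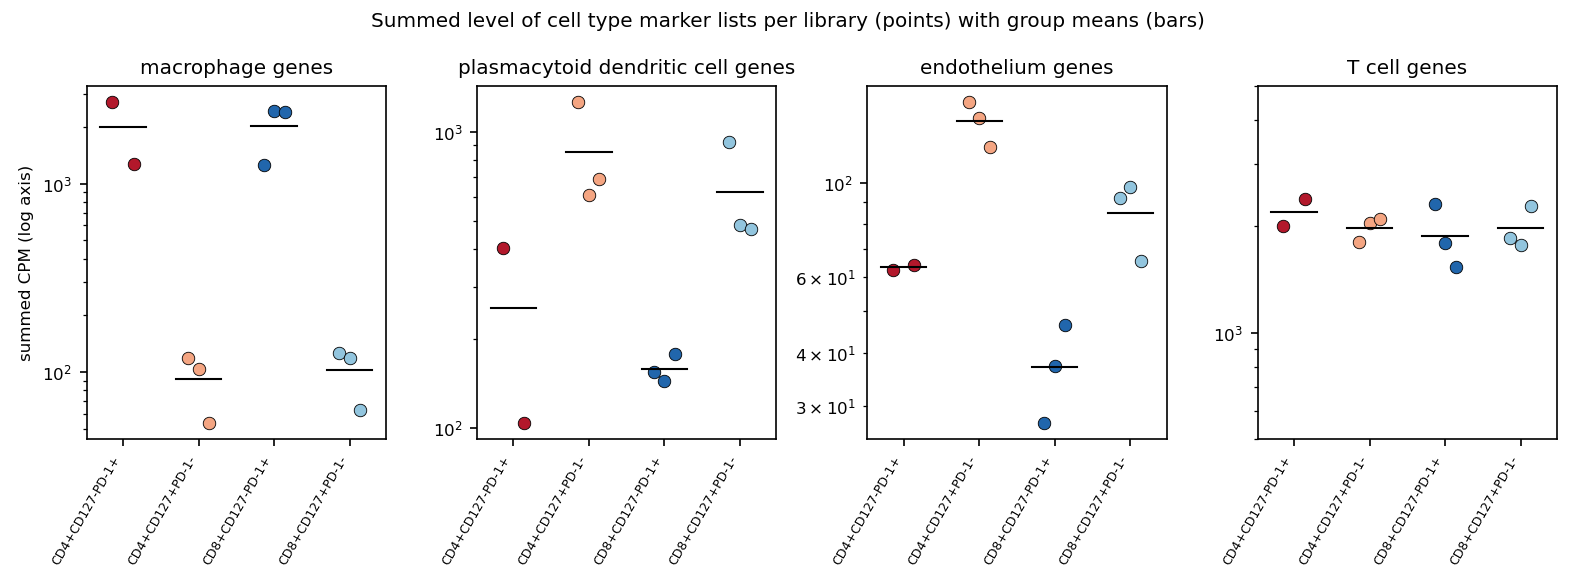
Summed CPM of marker lists per library on a log axis, with short lines for group means. Macrophage sums are 1251 to 2706 CPM in CD127-PD-1+ and 53.8 to 126 CPM in CD127+PD-1- libraries, plasmacytoid dendritic cell sums run the other way, and T cell sums stay between 1532 and 2384 CPM.

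Relative to Foxp3, the CD4 libraries of both states stood apart for 7 of the 9 other genes, as they did for 24.9% of all tested genes in the same ratio. For every 100 Foxp3 reads the CD4+CD127-PD-1+ libraries held 421 and 446 Ikzf2 reads, against 305, 350 and 279 in the CD4+CD127+PD-1- libraries. On the same scale Nrp1 had 199 and 155 reads in the CD127-PD-1+ libraries, against 89.3, 83.7 and 92.1 in the CD127+PD-1- libraries. Ebi3 had 13.2 and 8.49 reads in CD127-PD-1+, against 2.13, 1.80 and 1.74 in CD127+PD-1- libraries, and Tnfrsf4 had 23.6 and 47.0 in CD127-PD-1+, against 12.7, 15.4 and 22.1 in CD127+PD-1- libraries. Ikzf4 was the reverse, with 16.7 and 21.8 reads in CD127-PD-1+, against 27.9, 36.1 and 29.2 in CD127+PD-1- libraries. So was Gpr83, with 3.40 and 2.36 reads in CD127-PD-1+, against 8.20, 12.4 and 6.77 in CD127+PD-1- libraries. Tnfrsf18 had 58.9 and 51.8 reads in CD127-PD-1+, against 36.1, 51.0 and 40.8 in CD127+PD-1- libraries. Its groups nearly touched (51.8 against 51.0), as did those of Tnfrsf4 (23.6 against 22.1). In these ratios the groups did not overlap for Ikzf2, Nrp1, Ebi3, Tnfrsf4, Tnfrsf18, Ikzf4 and Gpr83, and overlapped for Lrrc32 and Capg. The ratios were not tested, since 2 against 3 libraries give a one-sided exact permutation p of at least 0.1.

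**Figure D5:**
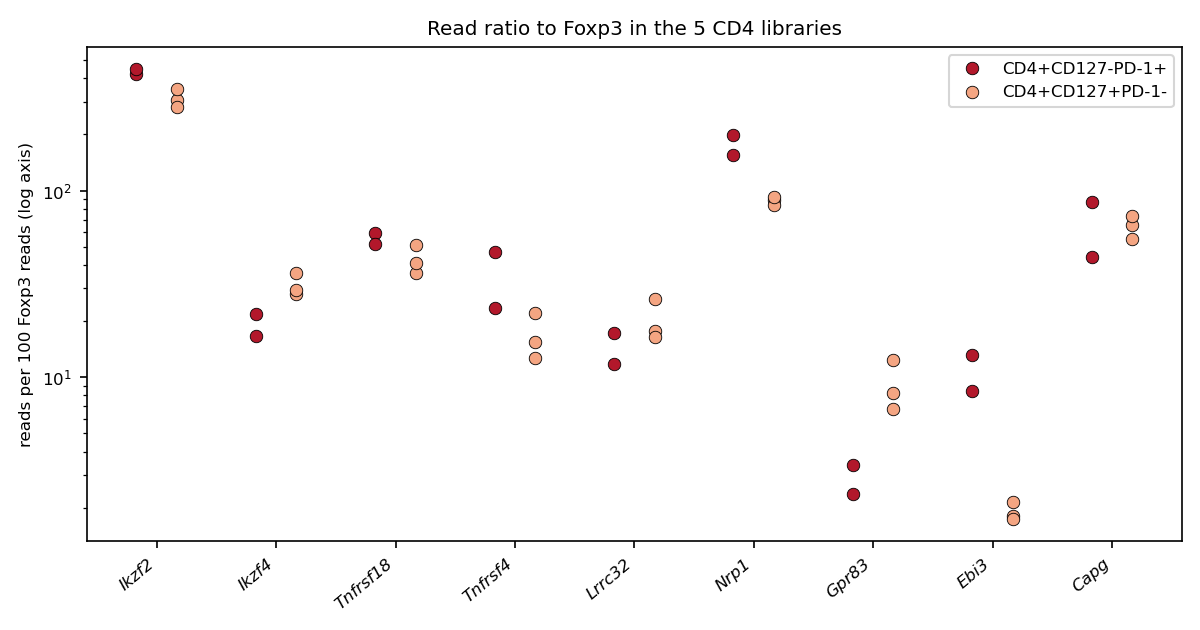
Reads of each gene per 100 Foxp3 reads in the 5 CD4 libraries, on a log axis, with 1 point per library. Nrp1 and Ebi3 lie higher in the CD4+CD127-PD-1+ libraries (155 to 199 and 8.49 to 13.2) than in the CD4+CD127+PD-1- libraries (83.7 to 92.1 and 1.74 to 2.13), and Gpr83 lies lower.

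Per kilobase of exon, the order of the genes changed with lineage and state. In CD4+CD127-PD-1+ cells Ikzf2 (24.7 ± 2.48 CPM per kb) and Tnfrsf18 (23.9 ± 0.754) came first and did not differ beyond their spread, followed by Capg, Tnfrsf4 and Foxp3 (14.4 ± 0.862). In CD4+CD127+PD-1- cells Tnfrsf18 (20.1 ± 4.89), Ikzf2 (19.3 ± 3.84), Capg (19.1 ± 7.79) and Foxp3 (16.1 ± 4.91) lay within their spread of each other. Gpr83 (0.370 ± 0.0735) was last in CD4+CD127-PD-1+ cells, and Gpr83 (1.24 ± 0.0466) and Ebi3 (1.20 ± 0.355) were last for CD4+CD127+PD-1-. In CD8+CD127-PD-1+ cells Nrp1 (7.15 ± 1.02), Tnfrsf18 (6.71 ± 1.04), Capg (6.68 ± 1.75) and Ebi3 (4.86 ± 0.866) led, and in CD8+CD127+PD-1- cells Tnfrsf18 (7.97 ± 0.868) led. Foxp3 was at 0.210 ± 0.0254 CPM per kb in CD8+CD127-PD-1+ cells, 8th of the 10, and at 0.411 ± 0.191 in CD8+CD127+PD-1- cells, 9th of the 10. Errors are SD over the libraries of a group.

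The gene closest to Foxp3 over the libraries was Ccr4, a gene outside the set. Likeness was the mean absolute difference in log2 CPM over the 11 libraries, after centring each gene on its own mean, among 8789 genes of sufficient level. Among the closest genes were the chemokine receptor gene Ccr4 (0.32), the CD40 ligand gene Cd40lg (0.42), Il1r1 (0.71), the IL-1 receptor, and Ccr8 (0.74), a chemokine receptor of tissue regulatory T cells. The nearest members were Lrrc32 and Tnfrsf4 at 0.97 each, and the farthest was Ebi3 at 2.73. Lrrc32, Tnfrsf4, Gpr83 and Ebi3 averaged below the level asked of the 8789 genes. With so many candidates beside so few members, a closer gene outside the set says little about the members. The libraries share the CD4 and CD8 sort, and the measure is a description without a test.

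Of a list of 35 other genes known from regulatory T cells, 13 were called higher in CD4 cells and 0 lower in each state. Of all tested genes, 1.6% were called higher and 0.843% lower in the CD127-PD-1+ state, and 2.76% and 1.66% in the CD127+PD-1- state. Ccr4 stood at 5.96 (SE 0.38, adjusted p = 1.25e-05) in CD127-PD-1+ cells and 5.51 (SE 0.34, adjusted p = 7.73e-06) in CD127+PD-1- cells. Ccr8 and the folate receptor family gene Izumo1r followed in CD127-PD-1+ cells (5.17, SE 0.37, and 2.90, SE 0.23, adjusted p = 3.08e-05 and 4.66e-05). Il1rl1, the IL-33 receptor of tissue regulatory and type 2 helper cells, and Socs2, a cytokine signalling inhibitor, followed in CD127+PD-1- cells (4.54, SE 0.35, and 2.63, SE 0.21, adjusted p = 3.14e-05 and 4.06e-05). The alpha chain of the IL-2 receptor, Il2ra, was called in the CD127+PD-1- state (2.78, adjusted p = 0.00195) and not in the other (1.58, adjusted p = 0.0773).

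Between states the same 35 genes gave both increases and decreases. In CD4 cells 10 were called higher in the CD127-PD-1+ state and 2 lower, beside 6.81% and 4.87% of all tested genes. In CD8 cells 14 were called higher and 3 lower, beside 9.05% and 6.56%. Their median log2 fold change was 0.73 in CD4 and 0.67 in CD8 cells, beside 0.02 and 0.01 over all tested genes. Entpd1, the ectonucleotidase CD39 of regulatory and chronically stimulated T cells and of macrophages, averaged 74.3 ± 7.10 CPM for CD4+CD127-PD-1+ libraries, against 21.5 ± 3.16 CPM for CD4+CD127+PD-1- libraries (1.79, SE 0.23, adjusted p = 0.00085). The IL-2 receptor beta chain Il2rb (0.83, SE 0.18, adjusted p = 0.0123) and the suppressive cytokine Il10 (1.81, SE 0.42, adjusted p = 0.0187) were higher in CD4 cells too. The part of macrophage RNA in the levels of these genes was not tested. The adjusted p of Il2rb was 0.0981 and that of Il10 0.182 without CD4+CD127-PD-1+ replicate 2, and at 0.05 and 0.0562 without CD4+CD127+PD-1- replicate 2. The lower genes in CD4 cells were Satb1, a chromatin organiser (-2.41, SE 0.22, adjusted p = 0.000122), and Bach2, a repressor that keeps T cells undifferentiated (-1.71, SE 0.38, adjusted p = 0.0148), which lost its call without replicate 2 of either CD4 group (0.0975 and 0.0528). In CD8 cells Entpd1, Swap70 (1.90, SE 0.27, adjusted p = 0.000769) and the effector factor Prdm1 (1.45, SE 0.24, adjusted p = 0.00204) had the smallest p of the increases, though not the largest fold changes. Satb1, Nt5e and Bach2 made up the decreases, with Bach2 at -1.17 (adjusted p = 0.0306) and a call lost without replicate 1 or 2 of either CD8 group (0.0547 to 0.122). Ctla4, which was called in CD8 cells (1.26, adjusted p = 0.0109, but 0.0502 without CD8+CD127+PD-1- replicate 2), and Il2ra and Icos were not called in CD4 cells (0.79, -0.64 and 0.01).

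The CD4 and CD8 state changes of the 10 genes were not called different from each other. The test of the difference called 0 of the 10, and 0.00611% of all tested genes. The estimates, CD4 minus CD8, ran from -0.85 for Nrp1 and Ebi3 to 2.36 for Gpr83. Between these lay Capg (-0.83), Ikzf2 (0.07), Lrrc32 (0.40), Tnfrsf18 (0.50), Foxp3 (0.80), Tnfrsf4 (1.24) and Ikzf4 (1.28). The smallest unadjusted edgeR p values of the 10 were those of Gpr83 (0.00164) and Ikzf4 (0.044). The share of all tested genes at such unadjusted values is not given here, so they are no sign of an excess. DESeq2 and limma-voom called 0 of the 10.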

How the data were processed

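RNA of sorted kidney T cells was amplified by single primer isothermal amplification from 2 ng and sequenced as single 75-base reads, per the labels. The deposited table holds raw read counts per gene, and STAR, featureCounts and build GRCm38 are named in the submitters' processing notes. The sources used here give neither the annotation release nor the strand setting. The table had 11 labelled columns, and 1 column that the labels do not name was not used.

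Counts were analysed with edgeR 4.0.16 in R 4.3.3 (filterByExpr, library sizes scaled by TMM (trimmed mean of M values), 1 mean per group over all 11 libraries, quasi-likelihood tests). The SE of a fold change was taken from its F statistic. DESeq2 1.42.0 and limma 3.58.1 served as alternatives, and the code was tested on simulated data. Log2 CPM for likeness used a prior count of 2 and genes with an average of at least 2, and not every close gene is reported here. Positions and exon lengths are from GENCODE M21 (GRCm38), and promoter sequences from RefSeq (GRCm38.p6).

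All 10 genes of the set are named in every comparison. From the list of other regulatory T cell genes, the 3 called genes with the smallest p in each direction and comparison are named. Il2ra, Ctla4 and Icos were added after their values were seen. The set and all lists were chosen with earlier results of these data known. Counting error is only part of the spread between libraries, which the tests use.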

Additional observations from a re-analysis of the deposited data

Results flagged for a closer look

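The state change of Nt5e, the ectonucleotidase CD73 and a gene of the other regulatory T cell list, differed between CD4 and CD8 cells by the test of the difference itself (1.94 on the log2 scale, SE 0.23, edgeR adjusted p = 0.0406). Nt5e measured 62.3 and 69.0 CPM in CD4+CD127-PD-1+ libraries and 63.2, 63.6 and 86.1 CPM in CD4+CD127+PD-1- libraries. In CD8 cells it measured 19.8, 15.7 and 17.6 CPM in CD127-PD-1+ libraries and 73.9, 83.2 and 63.8 CPM in CD127+PD-1- libraries (-2.06, SE 0.16, adjusted p = 3.2e-05). The call on the difference was lost in 10 of 19 alternative fits, with adjusted p up to 0.287. None of the 10 genes of the set passed this test. Single outlying libraries were not tested for in these groups of 2 or 3 libraries.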

How the results depend on the processing

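Over all comparisons and alternatives, 946 of 990 values of the 10 genes kept their direction and their side of the threshold, 26 lost a call, 8 gained one and 10 turned direction, all 10 of them values without a call. The counts of the 10 genes called were unchanged or nearly so between lineages (7 to 7 higher in CD127-PD-1+ and 7 to 8 in CD127+PD-1- cells over fits without 1 library). In the CD4 state comparison, 2 were called higher without the filter on low counts, and fits without 1 library gave 0 to 3 higher and 0 to 1 lower; a lone CD4+CD127-PD-1+ library is there assumed to vary like the other groups. Over all genes, fits without 1 library called 976 to 2051 in the CD4 state, 1475 to 2682 in the CD8 state, 126 to 443 and 378 to 764 between lineages in CD127-PD-1+ and CD127+PD-1- cells, and 0 to 5 for the difference of state changes. The counts for these last 3 were 791, 1215 and 85 without the filter (400, 723 and 1 with it) and 717, 1192 and 60 by DESeq2. A model of the compared groups alone called 214 genes between lineages in CD127-PD-1+ cells. Scaling libraries by T cell genes, chosen after seeing the data, called 1000, 1638, 253, 444 and 0 genes over the 5 comparisons in the same order, and moved the median of all genes by up to -0.27 (between lineages in CD127-PD-1+ cells). Of the values that turned direction, Foxp3 in the CD4 state ran from -0.37 to 0.089 over fits without 1 library, Capg in the CD4 state from -0.79 to 0.31, and the Ikzf2 difference of state changes from -0.25 to 0.31, with -0.10 under scaling by T cell genes. With a replicate block, on the number in the titles or in the descriptions, Foxp3 in the CD4 state stood at 0.029 (titles) and the Ikzf2 difference at -0.040 (descriptions), 0 genes passed for the difference of state changes (titles), and Lrrc32 lost its CD8 call (adjusted p = 0.0646 and 0.0976). On the description numbers Ikzf2 gained a CD8 state call (0.49, adjusted p = 0.0445), Gpr83 lost its lineage call in CD127-PD-1+ cells (adjusted p = 0.0677), and 3 genes in place of 2 were called higher in the CD8 state. Same-numbered libraries deviated together, with r over 0.1, in 7 of 15 pairs by title and 10 of 12 by description, among them all 6 pairs of description number 3 (0.105 to 0.325). By description 8 of 10 libraries correlated best with one of their own number, and by title 6 of 11. Since pairing was to be taken up only with every pair over 0.1, and the labels do not say what the numbers mark, the fits without a block were kept; shared sets behind the description numbers are a hint from the data, not the design. Among the 10 genes the read counts limit Foxp3, Lrrc32, Gpr83, Ebi3 and Tnfrsf4 most, in CD8 cells. The causes of these shifts were not tested.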

Other observations

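For other genes of the set, the closest patterns over the 11 libraries by the same mean absolute difference in centred log2 CPM were as follows. Ikzf2 was nearest to Rora (0.28), the gene of a nuclear receptor of tissue lymphocytes, then Podnl1 (0.30) and Neb (0.33). Tnfrsf18 was nearest to Cacnb1 (0.21), to Slamf1 (0.21), a costimulatory receptor, and to Cd5 (0.22), an inhibitory receptor of T cells. Nrp1 was nearest to Mdfic (0.21), Fes (0.25) and Gcnt1 (0.25), and Ikzf4 to Tbc1d30 (0.46), Nebl (0.49) and Cyp2s1 (0.50). Within the set, Ikzf2 and Capg were the closest pair (0.47). The libraries share their sort and their depth, and these are descriptions without a test.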
